A study of Mus musculus with 6 samples.

Results

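Voltage-gated potassium channel alpha subunits were taken as the gene rows whose symbol carries one of the family prefixes Kcna, Kcnb, Kcnc, Kcnd, Kcnf, Kcng, Kcnh, Kcnq, Kcns or Kcnv followed by a number, and 40 of the 48401 gene rows met this rule. The tissue sequenced was whole L4/5 dorsal root ganglion (DRG), where the cell bodies of lumbar sensory neurons lie with their glia. The mice were 8-week-old C57BL/6J males, with no transgene named in the labels. One group had been injected intrathecally, into the fluid around the spinal cord, with siCLAP, a small interfering RNA (siRNA) against the long intergenic noncoding RNA CLAP that the study ties to itch, and the other with siNC, taken here as the control. Each group held 3 libraries, numbered 1, 2 and 3 and given in that order wherever 3 values stand together. Total expected counts ran from 25982046 to 39239131 in siCLAP libraries and from 21386768 to 46317735 in siNC libraries. Whether each library is 1 mouse or a pool, the siRNA dose and the time after injection are unknown from the labels, so p-values measure the spread between these libraries, which may be technical. No gene row carries the name CLAP, so the knockdown was not checked here.

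Kv alpha subunits are membrane proteins that assemble as tetramers around a pore that passes potassium. Each subunit has a voltage sensor that opens the pore when the membrane depolarises and a pore loop with the selectivity filter. The outward potassium current ends the action potential, sets how often a sensory neuron can fire and holds back spontaneous firing. Modifier subunits of the Kcnf, Kcng, Kcns and Kcnv groups form no channel alone and change the gating of Kv2 channels they join.

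The filter is a part that the whole family shares, so the coding sequence around it is shown for some of its genes. Kcnh6 and Kcnh7, of the ether-a-go-go branch, had estimates in opposite directions between the groups, although neither passed the test used throughout. The most abundant gene of the Kv4 group and that of the Kv1 group are shown with them. Each stretch is 60 bases of coding sequence in the GENCODE M21 annotation of GRCm38, the mm10 build, with the 6 codons of the filter motif in capitals. The motif searched was threonine or serine, then valine, isoleucine, methionine or leucine, then glycine, then tyrosine or phenylalanine, then glycine, then aspartate or asparagine. All 40 genes had 1 match to it in their longest coding sequence, against 71 of 22075 coding genes in the annotation (0.322%) with at least 1, these 40 included.
Kcnh6: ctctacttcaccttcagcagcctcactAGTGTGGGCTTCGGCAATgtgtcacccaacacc
Kcnh7: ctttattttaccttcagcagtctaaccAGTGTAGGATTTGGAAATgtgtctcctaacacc
Kcnd1: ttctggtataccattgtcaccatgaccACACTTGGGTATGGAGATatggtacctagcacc
Kcna1: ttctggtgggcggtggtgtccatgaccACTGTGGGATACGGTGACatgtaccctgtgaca
The stretch of Kcnh6 lies at chr11:106019049-106019108 (plus strand) and that of Kcnh7 at chr2:62777325-62777384 (minus strand). In Kcna1 it lies at chr6:126642210-126642269 (minus strand), in the single coding exon. In Kcnd1 the stretch runs from chrX:7824929 to chrX:7831196 (plus strand) and is interrupted by an intron within that span. Over the 60 bases Kcnh6 and Kcnh7 matched each other at 80.0% of positions, and Kcnd1 and Kcna1 at 63.3%. Between these pairs the match ran from 46.7% for Kcnh7 and Kcna1 to 58.3% for Kcnh7 and Kcnd1.

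Levels are compared between genes in TPM, which is scaled to gene length. Kcna1, which encodes Kv1.1, a brake on repetitive firing, was the most abundant, at 194, 186 and 202 TPM in siCLAP libraries, against 203, 178 and 188 TPM in siNC libraries. Kcnd1, which encodes the A-type subunit Kv4.1, followed at 151 ± 9.91 TPM in siCLAP libraries and 170.3 ± 3.63 TPM in siNC libraries (mean ± SD, n = 3 libraries each, as for all means here). Kcna2, which encodes Kv1.2, the partner of Kv1.1 beside the nodes of Ranvier, stood at 115 ± 6.17 TPM in siCLAP libraries and 113 ± 8.93 TPM in siNC libraries. Kcna1, Kcnd1 and Kcna2 held these places in all 6 libraries.

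The next places lay close together. Kcnh2 and Kcna6 had TPM of 95.5 ± 7.32 and 91.1 ± 2.32 in siCLAP libraries, against 88.3 ± 4.09 and 90.6 ± 1.97 TPM in siNC libraries. Their order was not the same in the groups, and they differed by less than the larger of their SDs. Kcns1, Kcnd3, Kcnc4 and Kcnh6 were also among the 12 most abundant genes, of which 9 are given singly here, with mean TPM over all 6 libraries from 72.2 down to 58.1. Kcnc4 and Kcnh6 differed by less than their SDs in either group. Together the 12 genes made up 78.1% of the summed TPM of the family. Below them, tested genes had mean TPM from 48.6 for Kcns3 down to 1.47 for Kcna5, with Kcnd2 last. At the other end, 5 genes had a mean below 1 TPM and were not tested. Their highest TPM in any library was 0.779 for Kcna10, 0.750 for Kcna3, 0.218 for Kcnh4, 0.152 for Kcna7 and 0.0723 for Kcnv2. Kcnv2 had 1 or 2 counts in each siCLAP library and 3 in each siNC library, too few to compare.

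**Figure D1:**
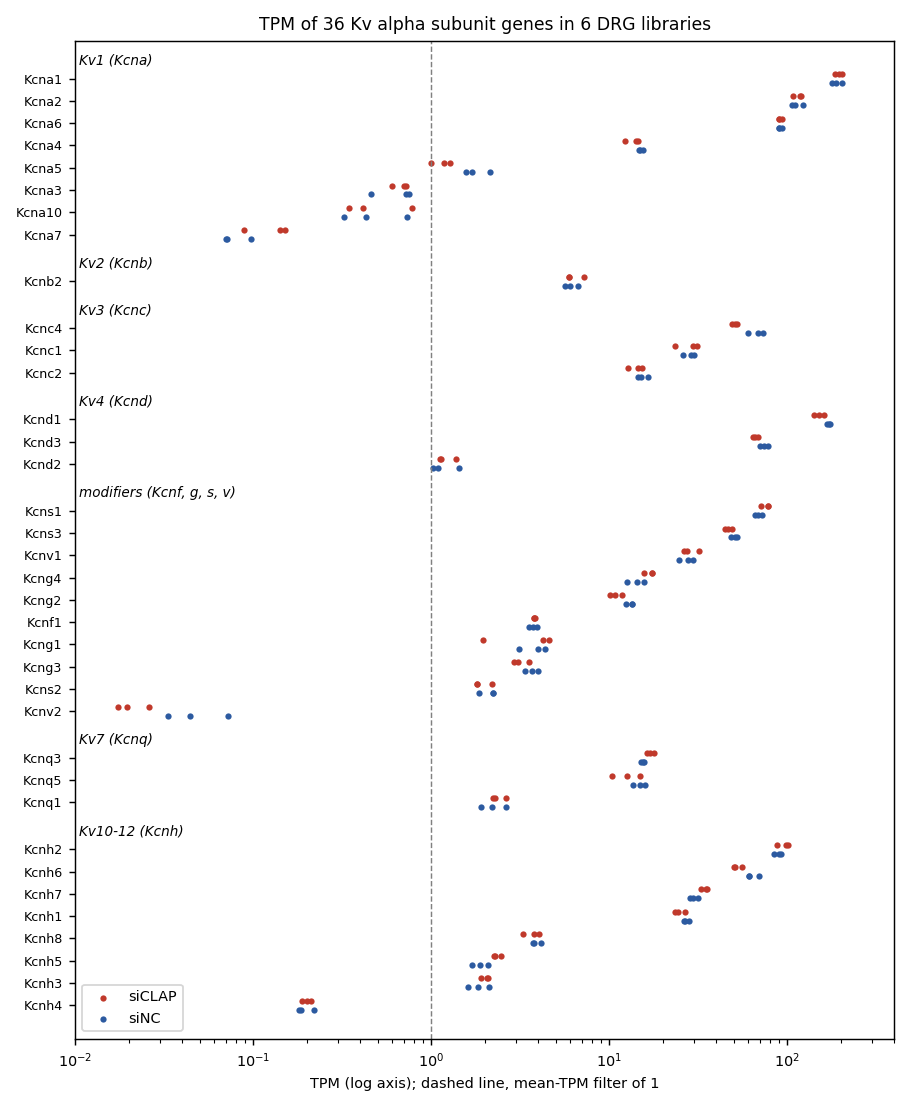
TPM (x axis, log scale) of 36 of the 40 Kv alpha subunit genes, grouped by subfamily, with 1 point per library, siCLAP in red above siNC in blue. Kcna1 is the highest at 178 to 203 TPM, and the 5 genes with a mean left of the dashed line at 1 TPM are Kcna3, Kcna10, Kcna7, Kcnv2 and Kcnh4. Kcna5, whose mean is above the line, has its siCLAP-2 point just left of it at 0.992 TPM.

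The Kv transcripts were then set against the question of the design, namely what differs in the ganglion between mice given siCLAP and mice given siNC. In edgeR's quasi-likelihood test with Benjamini-Hochberg adjustment over all 19141 tested genes, 1 of the 35 tested Kv genes, Kcnc4, was lower in siCLAP libraries and 0 were higher, at an adjusted p under 0.05. Of all tested genes 0.293% were called, 0.219% lower and 0.0731% higher. Without adjustment, 14 of the 35 had a p under 0.05, 8 lower and 6 higher, or 40.0%. Among all tested genes it was 17.0%, with 8.75% lower and 8.22% higher. The groups did not overlap on CPM (the count scaled to the library total, with TMM normalisation) for 12 of the 35, 7 lower and 5 higher, against 21.5% of all tested genes (10.7% lower and 10.9% higher). In bulk tissue, fewer cells of a type and less RNA per cell cannot be told apart. The median log2 fold change was −0.043 over the 35 and −0.0018 over all tested genes. The median size of the change, whatever its sign, was 0.13 over the 35 and 0.11 over all tested genes, and the median standard errors were 0.077 and 0.093.

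**Figure D2:**
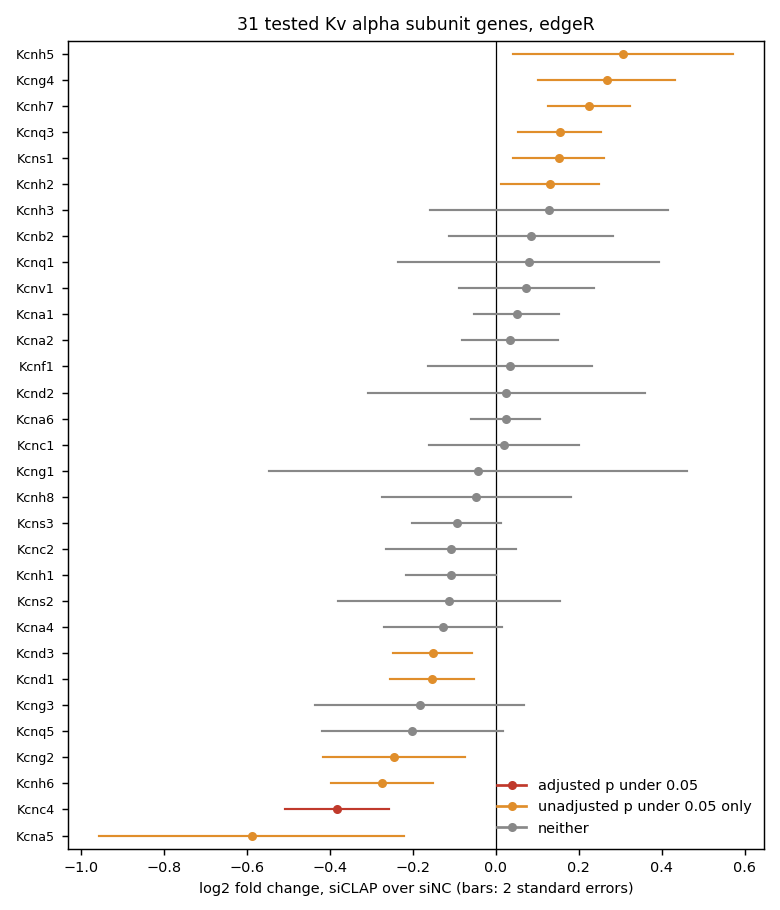
Log2 fold change (x axis, siCLAP over siNC) of 31 of the 35 tested Kv genes, 1 row per gene, with bars of 2 standard errors from edgeR's quasi-likelihood fit and colours for the p-value. Kcnc4, at −0.38, is the only gene in red (adjusted p under 0.05), and 11 genes in orange passed only before adjustment.

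Among Kv3 genes, whose channels open at strong depolarisation and repolarise the membrane fast, Kcnc4 fell. It spans chr3:107438303-107459552 on the minus strand of GRCm38 and encodes Kv3.4, a rapidly inactivating channel of small nociceptive DRG neurons. Kcnc4 stood at 57.3, 60.6 and 59.4 CPM in siCLAP libraries, against 77.9, 70.4 and 83.3 CPM in siNC libraries. Every siCLAP library lay below every siNC library, and the siCLAP values were the more tightly grouped. The fall was 1.30-fold (log2 fold change −0.38 ± 0.062 SE, adjusted p = 0.0381, edgeR). Its call ended without siNC-1, siNC-3, siCLAP-1 or siCLAP-2 (adjusted p = 0.0965, 0.159, 0.225 and 0.0599), in limma on log2(TPM + 0.5) (adjusted p = 0.157) or log2(TPM + 0.1), and without siNC-3 and siCLAP-2 together, while the estimate stayed between −0.48 and −0.33 in all 15 alternatives run. Summed TPM of 8 marker genes of non-peptidergic nociceptors was 1406 to 1492 in siCLAP libraries and 1725 to 1826 in siNC libraries. Of the 8, 4 were called lower (Gfra2, Mrgprd, Plxnc1 and Scn11a), against 0.219% of all tested genes. The pan-neuronal list also lay apart, higher in siCLAP libraries, and further lists that differed are given below. The part of any of these lists in the value of Kcnc4 was not tested.

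The remaining Kv3 genes did not pass. Kcnc1 and Kcnc2, which encode Kv3.1 and Kv3.2, were at 0.019 ± 0.090 and −0.11 ± 0.078 on the log2 fold change scale. Kcnc4 made up 27.5%, 31.4% and 26.6% of the summed Kv3 TPM in siCLAP libraries, against 34.3%, 33.4% and 37.5% in siNC libraries. On chromosome 3, Kcnc4 lies within 423 kb of the Kv1 genes Kcna3, Kcna2 and Kcna10. Of these only Kcna2 is expressed above 1 TPM, and it stood at 0.034 ± 0.058 on the log2 fold change scale.

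Kv2 channels carry much of the sustained delayed rectifier current of large and small neurons. Kcnb2, which encodes Kv2.2 and had 6.35 ± 0.738 TPM in siCLAP libraries and 6.09 ± 0.503 TPM in siNC libraries, stood at 0.085 ± 0.10 on the log2 fold change scale.

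Kv4 channels give the fast, low-threshold A-type current that delays the first spike. Kcnd1 had 307, 288 and 329 CPM in the siCLAP libraries and 341, 339.6 and 348 CPM in the siNC libraries, with the highest siCLAP library below the lowest siNC library. Kcnd3, which encodes Kv4.3, had 177, 188 and 181 CPM in the siCLAP libraries and 200.1, 194 and 213 CPM in the siNC libraries, also without overlap. Neither passed over all genes (log2 fold changes −0.15 ± 0.051 and −0.15 ± 0.048, adjusted p = 0.166 and 0.152, edgeR). Kcnd2, which encodes Kv4.2, was near the filter at 1.21 ± 0.142 TPM in siCLAP libraries and 1.19 ± 0.218 TPM in siNC libraries, and stood at 0.025 ± 0.17 on the log2 fold change scale.

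**Figure D3:**
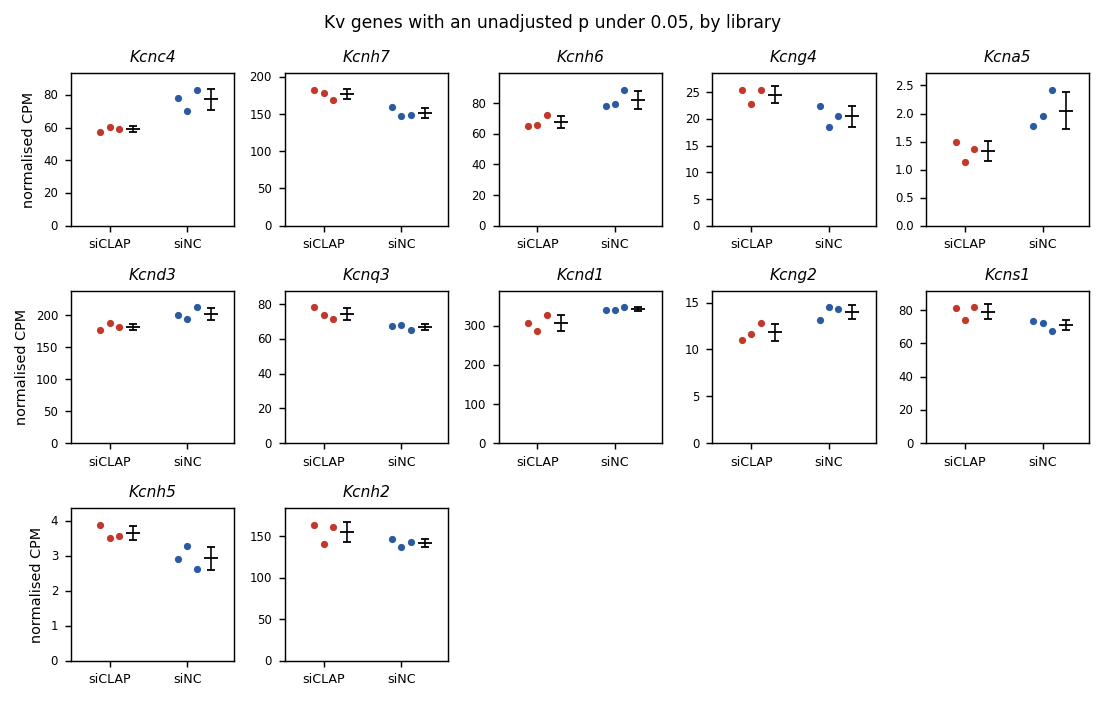
Normalised CPM (y axis, from 0) of 12 of the 14 Kv genes with an unadjusted p under 0.05, with 1 point per library, siCLAP left in red and siNC right in blue, and the mean with its SD (n = 3) in black. Kcnc4 sits at 57.3 to 60.6 CPM in siCLAP libraries and 70.4 to 83.3 CPM in siNC libraries, and Kcnh2 is the only gene shown whose groups overlap.

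Kv1 channels open at low voltage and restrain firing, and the estimates of their most abundant members lay near 0. Kcna1 was at 673, 641 and 698 CPM in the siCLAP libraries and 687, 617 and 638 CPM in the siNC libraries (log2 fold change 0.050, 2 SE interval −0.052 to 0.15). Kcna2 was at 0.034 (interval −0.081 to 0.15) and Kcna6, which encodes Kv1.6, at 0.023 (interval −0.059 to 0.11). In each of them the groups overlapped, and no interval reached past 0.15 in either direction at 2 decimals. The ratio of Kcna1 to Kcna2 in TPM was 1.69 ± 0.0507 in siCLAP libraries and 1.67 ± 0.0230 in siNC libraries. Scaling to pan-neuronal genes lowered the median log2 fold change of all tested genes to −0.097, against −0.0018, and by this common shift the estimates of Kcna1, Kcna2 and Kcna6 fell below 0. For Kcna6, 39.6% of the exon bases overlap exons of Gm26673 on the opposite strand, which these libraries cannot tell apart. Overlaps of this kind cover 9.10% of Kcng2 and at most 4.57% of Kcnh7, Kcnq5, Kcnq1, Kcnd3 and Kcnh3.

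Kcna4, which encodes the A-type subunit Kv1.4 of small DRG neurons, had 23.0, 26.2 and 26.9 CPM in the siCLAP libraries and 26.7, 28.8 and 27.3 CPM in the siNC libraries (−0.13 ± 0.071 on the log2 fold change scale, adjusted p = 0.387, edgeR). Kcna5, which encodes Kv1.5, had the lowest log2 fold change of the tested Kv genes at low counts. It had 1.49, 1.14 and 1.36 CPM in the siCLAP libraries and 1.77, 1.96 and 2.43 CPM in the siNC libraries. That is 30 to 58 expected counts in siCLAP libraries and 52 to 90 in siNC libraries, and the difference did not pass (log2 fold change −0.59 ± 0.18, adjusted p = 0.152, edgeR).

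Kv7 channels carry the M current, a slow current that holds the resting membrane down. Kcnq3, which encodes Kv7.3, a main subunit of that current, had 78.3, 73.8 and 71.3 CPM in the siCLAP libraries and 67.7, 67.9 and 65.1 CPM in the siNC libraries, without overlap (log2 fold change 0.15 ± 0.050, adjusted p = 0.163, edgeR). Kcnq5, which encodes Kv7.5, had 37.2, 30.2 and 43.8 CPM in the siCLAP libraries and 42.6, 40.0 and 46.1 CPM in the siNC libraries, and the groups overlapped. Kcnq5 and Kcnq1 were at −0.20 ± 0.11 and 0.079 ± 0.16 on the log2 fold change scale.

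The Kcnh genes encode the ether-a-go-go channels Kv10 to Kv12, whose ERG branch (Kcnh2, Kcnh6 and Kcnh7, for Kv11.1 to Kv11.3) inactivates fast. Kcnh6 had 65.3, 65.8 and 72.1 CPM in the siCLAP libraries and 77.9, 79.5 and 88.8 CPM in the siNC libraries, and every siCLAP value was the lower. Kcnh7 ran the other way, at 183, 179 and 169 CPM in the siCLAP libraries and 159, 147 and 148 CPM in the siNC libraries, and every siCLAP value was the higher. Neither passed over all genes (log2 fold changes −0.27 ± 0.062 and 0.22 ± 0.049, adjusted p = 0.0800 and 0.0766, edgeR). DESeq2 called both (adjusted p = 0.00526 and 0.00516), as it did Kcnc4 (2.30e-05). Kcnh6 was called in 5 and Kcnh7 in 4 of the 15 alternatives, among them the fit without a TPM filter (adjusted p = 0.00427 and 0.0111) and the fit without siCLAP-3 (adjusted p = 0.0416 and 0.0412). In all DESeq2 called 4 of the 30 Kv genes to which it gave an adjusted p (13.3%), against 4.38% of all genes that had one. The ratio of Kcnh7 to Kcnh6 in TPM, computed after these values were seen and not tested, was 0.709, 0.687 and 0.592 in siCLAP libraries, against 0.516, 0.467 and 0.423 in siNC libraries. Exons of Gca overlap 4.57% of the Kcnh7 exon bases on the opposite strand, and Gca stood at 0.11 ± 0.07 on the log2 fold change scale.

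Kcnh2, the most abundant of the ERG genes, had 164, 141 and 161 CPM in the siCLAP libraries and 146, 137 and 143 CPM in the siNC libraries, and the groups overlapped (log2 fold change 0.13 ± 0.059, adjusted p = 0.293, edgeR). Kcnh5, which encodes Kv10.2, had only 3.89, 3.51 and 3.57 CPM in the siCLAP libraries and 2.90, 3.28 and 2.61 CPM in the siNC libraries, without overlap (log2 fold change 0.31 ± 0.13, adjusted p = 0.275, edgeR). Kcnh1, which encodes Kv10.1, was at −0.11 ± 0.054 on that scale, and Kcnh3 and Kcnh8, of the Kv12 branch, at 0.13 ± 0.14 and −0.047 ± 0.11.

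Of the 9 tested modifier genes, 0 passed over all genes, 1 had an unadjusted p under 0.05 with a lower value in siCLAP libraries and 2 with a higher one, where 8.75% of all tested genes were lower and 8.22% higher at that p. Kcns1, which encodes Kv9.1, a modifier of Kv2 channels in myelinated sensory neurons, was the most abundant, at 81.3, 73.9 and 81.7 CPM in the siCLAP libraries and 73.4, 72.2 and 67.6 CPM in the siNC libraries. The lowest siCLAP library lay just above the highest siNC library (log2 fold change 0.15 ± 0.055, adjusted p = 0.200, edgeR). Kcng4, which encodes Kv6.4, had 25.5, 22.8 and 25.4 CPM in the siCLAP libraries and 22.4, 18.4 and 20.6 CPM in the siNC libraries (log2 fold change 0.27 ± 0.082, adjusted p = 0.148, edgeR). Kcng2, which encodes Kv6.2, had 11.0, 11.7 and 12.8 CPM in the siCLAP libraries and 13.2, 14.5 and 14.3 CPM in the siNC libraries (−0.24 ± 0.085 on the log2 fold change scale, adjusted p = 0.191, edgeR). Kcns3, which encodes Kv9.3, was second in level at 46.8 ± 2.16 TPM in siCLAP libraries and 50.5 ± 1.85 TPM in siNC libraries, with overlapping groups on CPM. The log2 fold changes of Kcns3, Kcnv1, Kcnf1, Kcng1, Kcng3 and Kcns2 ran from −0.18 for Kcng3 to 0.07 for Kcnv1.

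Summed over the 40 genes, Kv TPM was 1454, 1373 and 1507 in siCLAP libraries, against 1548, 1441 and 1513 in siNC libraries. The groups overlapped (log2 ratio of means −0.055, two-sided exact permutation p = 0.4, where 3 against 3 libraries allow no p below 0.1). Within that sum Kv1 genes took the largest share, 28.8% ± 0.576 in siCLAP libraries and 27.4% ± 0.512 in siNC libraries. Kv4 genes took 14.8%, 15.4% and 15.1% in siCLAP libraries, against 15.9%, 16.5% and 16.7% in siNC libraries. Modifier genes took 13.2% ± 0.158 in siCLAP libraries and 12.5% ± 0.529 in siNC libraries. The Kcnh genes took 14.9% ± 0.173 in siCLAP libraries and 14.5% ± 0.228 in siNC libraries. In the Kv1, Kv4, modifier and Kcnh groups the libraries did not overlap, whereas the Kv3 and Kv7 shares did. The shares add up to the whole and so move against each other, and they were not tested.

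**Figure D4:**
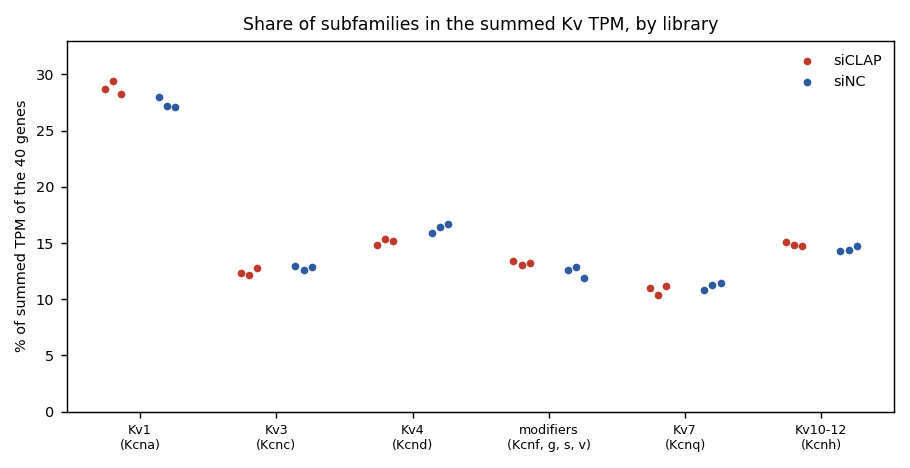
Share of subfamilies in the summed TPM of the 40 Kv genes (y axis, percent, from 0), with 1 point per library, siCLAP left in red and siNC right in blue. Kv4 averages 15.1% in siCLAP libraries and 16.4% in siNC libraries, and Kv1 averages 28.8% in siCLAP libraries and 27.4% in siNC libraries.

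Auxiliary subunits and proteins that hold Kv channels in place were followed through a list of 39 names, of which 38 had a row and 35 were tested. Of these 35, 1 fell in siCLAP libraries (Lgi1), 0 rose, and 12 had an unadjusted p under 0.05, 8 lower and 4 higher (34.3%). Of all tested genes 0.293% were called, and 17.0% had an unadjusted p under 0.05, 8.75% lower and 8.22% higher. The partners' median log2 fold change was 0.0014. Lgi1 encodes a secreted protein that belongs to Kv1 channel complexes and binds ADAM22 and ADAM23. Lgi1 had 65.4, 64.8 and 62.8 CPM in the siCLAP libraries and 81.6, 78.5 and 79.7 CPM in the siNC libraries, far apart relative to the spread within each group (log2 fold change −0.31 ± 0.045, adjusted p = 0.0268, edgeR). Its call ended without siNC-1, siNC-3 or siCLAP-1 (adjusted p = 0.0630, 0.115 and 0.166) and in limma on log2(TPM + 0.5) (0.148) or log2(TPM + 0.1) (0.142), and without siNC-3 and siCLAP-2 together (0.151). The estimate lay between −0.41 and −0.29 in all 15 alternatives run.

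Kcnab1, Dpp10, Ank3, Dlg1 and Kcnip1 came next by p-value and did not pass. Kcnab1, which encodes a beta subunit that speeds inactivation of Kv1 channels, had 154, 155 and 154 CPM in the siCLAP libraries and 161, 178 and 180.3 CPM in the siNC libraries (−0.16 ± 0.050 on the log2 fold change scale, adjusted p = 0.142, edgeR). Dpp10 and Kcnip1, which encode auxiliary subunits of Kv4 channels, were at −0.20 ± 0.063 and 0.16 ± 0.061. Ank3, which encodes ankyrin-G, the anchor of Kv7 channels at the axon initial segment, and Dlg1, which encodes a scaffold of Kv1 channels, were at −0.16 ± 0.052 and −0.19 ± 0.069. Cntnap2, which encodes Caspr2, the protein that gathers Kv1 channels beside the node, was at 0.0051 ± 0.071, and Amigo1, which encodes an auxiliary subunit of Kv2 channels, at 0.095 ± 0.039. Cntnap2 and Amigo1 were chosen after their values were seen.

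Marker lists of other cell types and neuron classes are given beside these values. For 9 genes of myelinated afferents summed TPM was 2643 to 2991 in siCLAP libraries and 2276 to 2711 in siNC libraries. Pvalb was called higher, and at an unadjusted p under 0.05 5 of the 9 were higher and 1 lower. The sum over 12 pan-neuronal genes was 15618 to 16038 TPM in siCLAP libraries and 14687 to 15023 TPM in siNC libraries. Of the 12, 0 were called, but 6 were higher and 1 lower at an unadjusted p under 0.05. Leptomeningeal genes, 8 in number, summed to 23.1 to 47.9 TPM in siCLAP libraries and 38.4 to 171 TPM in siNC libraries. Of 7 tested, 0 were called, but 5 were lower at an unadjusted p under 0.05 and the median log2 fold change was −1.78. Myelinating Schwann cell genes, 10 in number, summed to 3444 to 3752 TPM in siCLAP libraries and 3471 to 4600 TPM in siNC libraries. Egr2 was called lower, and 7 of the 10 were lower at an unadjusted p under 0.05 (median log2 fold change −0.27). Of all tested genes 8.75% were lower and 8.22% higher at that p, with 0.219% called lower and 0.0731% called higher. Skeletal muscle and spinal cord glia lists of 6 genes each stayed at or below 7.51 and 9.82 TPM in siCLAP libraries and 4.39 and 6.44 TPM in siNC libraries, and no listed marker was at 0 in all libraries. For the peptidergic, satellite glia, fibroblast, macrophage, endothelial and mural lists the ranges overlapped between the groups, with Ednrb of the satellite glia list called higher. The part of all these markers in the Kv values was not tested. Relative to pan-neuronal counts, a scaling chosen after seeing the data, Kcnc4 was at −0.48, and Kcnh6, Kcnd1 and Kcnd3 were also called lower. That scaling moved all genes down, to a median of −0.097. It called 984 of the 19141 tested genes lower and 27 higher, and 5 of the 35 tested Kv genes lower and 0 higher. Because all genes shifted, the added calls are not read as a result about Kv genes, and the difference in shares was not tested.

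**Figure D5:**
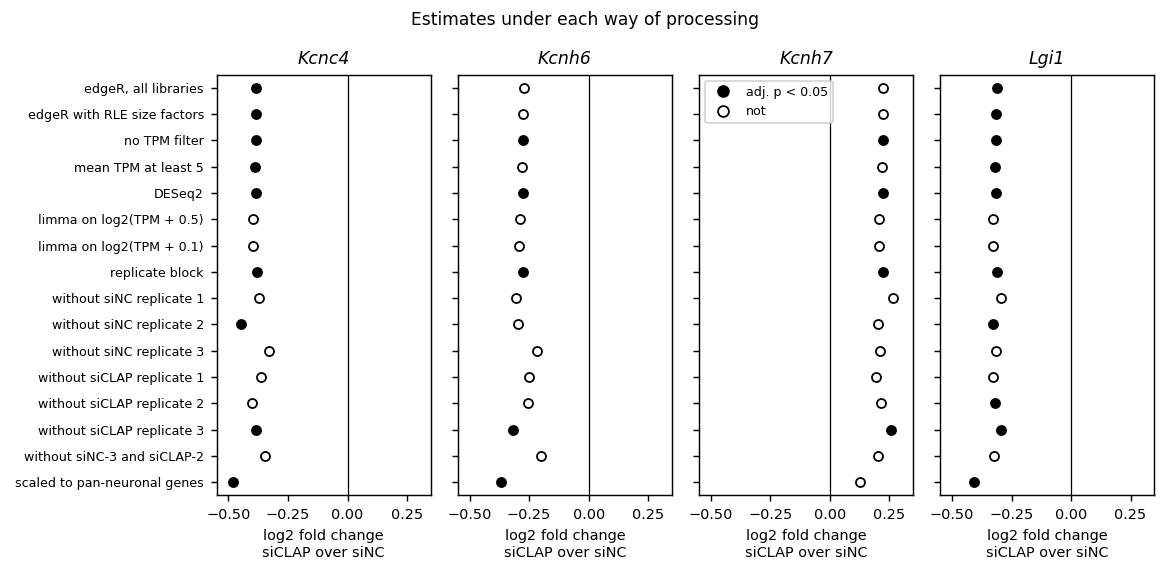
Log2 fold change (x axis, siCLAP over siNC) of Kcnc4, Kcnh6, Kcnh7 and Lgi1 under the test used throughout (top row) and 15 alternatives (y axis), with filled points where the adjusted p was under 0.05. Estimates of Kcnc4 lie between −0.48 and −0.33 and those of Kcnh7 between 0.13 and 0.26, while the points change between filled and open.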

How the data were processed

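RNA libraries were made from total RNA with the NEBNext Ultra RNA kit, which does not mark strand, per the labels' protocols. Per the submitters' processing notes, the tools were HISAT2 2.1.0, FastQC 0.11.8 and featureCounts 1.6.2, with the mm10 build. No source used here gives the annotation, or says how reads matching several genes were counted. Each deposited file lists 48401 gene symbols with the authors' TPM and expected count. The deposited expected counts, of which 64.4% to 68.3% per library are whole within 1e-06, were rounded to whole numbers. No tested Kv gene shared its counts in all libraries with another gene.

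Libraries were compared in R 4.3.3 by the quasi-likelihood test of edgeR 4.0.16 with TMM scaling and no covariate, on genes with a mean of at least 1 TPM over the 6 libraries, with Benjamini-Hochberg adjustment over 19141 genes and a threshold of 0.05. The common biological coefficient of variation was 6.78%. Standard errors are the size of the log2 fold change over the root of F. Alternatives used DESeq2 1.42.0, limma 3.58.1 on log2(TPM + 0.5) or log2(TPM + 0.1), other filters and scalings, the replicate number as a block, and libraries left out. The scripts were tested on simulated counts.

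Libraries of one group differed by more than counting noise (mean chi-square per gene 4.36 to 10.0), and each counts as 1 sample. Some items, among them 4 of the 40 genes, are not reported here, although they stay in all counts, sums and fits. Members and lists were chosen with earlier results of these data known. Of the rest, named genes were those with an unadjusted p under 0.05, the 12 with the highest mean TPM, and the 6 partner genes with the smallest p. Other named genes give each member's value or were chosen after their values were seen. Gene positions, exon overlaps and coding sequences came from GENCODE M21, which holds all 40 symbols. Exons of 9 of the 40 overlap another gene's exons on the opposite strand.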

Additional observations from a re-analysis of the deposited data

How the results depend on the processing

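The count of Kv genes called, 1 of 35, was 4 of 40 without a TPM filter and 4 of the 30 given an adjusted p by DESeq2. It was 4 of 35 with the replicate block, 5 of 35 when scaled to pan-neuronal genes and 0 with limma at either pseudocount. It was also 0 without siNC-3 and siCLAP-2 together. An earlier account of these data described that pair as high in interferon genes, which was not checked here. Leaving out 1 library gave 0 to 4 (4 without siCLAP-3, 2 without siNC-2, 0 without any one of the other four). Over all genes, 56 calls of 19141 (0.293%) became 611 of 13942 (4.38%) with DESeq2, 835 without a filter and 118 at a mean of at least 5 TPM. Filters change the number of genes tested, so 835 and 118 are not out of 19141. On the same 19141 genes, calls numbered 203 with the block, 13 without the pair and 0 to 340 without 1 library. With limma 0 were called, although 3028 and 3017 genes had an unadjusted p under 0.05 for pseudocounts of 0.5 and 0.1. Scaling to pan-neuronal genes gave 1011 calls, 27 higher and 984 lower, against 14 and 42, and moved the median of all genes to −0.097. Kv genes at an unadjusted p, 14 of 35, numbered 9 to 14 without 1 library (9 without siNC-3 or siCLAP-1) and 9 without the pair. The partner count of 1 was 2 without a filter, 7 with pan-neuronal scaling, 0 with limma, 0 without the pair and 0 to 1 without 1 library. The Kv median of −0.043 ran from −0.055 to 0.011 without 1 library, and was −0.14 with pan-neuronal scaling. Summed Kv TPM gave log2 ratios from −0.087 to −0.014.

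Of 313 values of 21 named genes under 15 alternatives, 4 changed sign, all in genes that did not pass. Without 1 library, Kcna2 ran from −0.0024 (without siNC-2) to 0.094, and the cause was not tested. The others came with pan-neuronal scaling, which by construction moves all genes alike and put Kcna1, Kcna2 and Kcna6 at −0.046, −0.062 and −0.073. Same-numbered libraries did not deviate together more than others (r = 0.066, 0.0077 and −0.044, against −0.107 to 0.087 for unlike numbers). With so few libraries this cannot decide whether the replicate numbers pair mice, and the labels do not say. The 5 Kv genes with a mean below 1 TPM were held out by the TPM filter and entered only the fit without it.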

Other observations

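Kcng1, a modifier gene, had the largest standard error of the tested Kv genes (0.25 on the log2 scale). It stood at 6.69, 3.05 and 7.28 CPM in siCLAP libraries 1, 2 and 3, against 6.76, 4.91 and 6.16 CPM in siNC libraries 1, 2 and 3.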
